A study of Mus musculus with 24 samples.

Results

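HH and LH pups ate the same high vitamin D diet after weaning and differed in the diet of their mothers. LH pups also changed diet at weaning and HH pups did not. The HH and LH arrays therefore compare maternal diets in pups then fed high, and the maternal diet cannot be told apart from that change. The HH mothers received 5000 and the LH mothers 25 IU vitamin D3 per kg diet, from their own weaning through pregnancy and lactation. After weaning, all pups of both groups received 5000 IU per kg until they were killed at 3 months of age. All mice were males of the 129/SvEvIL-10 KO strain, which lacks the anti-inflammatory cytokine IL-10 and develops colitis. RNA of the proximal colon from 6 HH and 6 LH mice was hybridized to 1 Illumina MouseWG-6 array for each mouse, which is 12 of the 24 arrays in the series. The other 12 arrays are of HL and LL mice, whose mothers were fed in the same 2 ways but who ate 25 IU per kg after weaning. The 12 mice carried 12 different mother's labels, and a mouse is named here by its group and that label. No mother was shared between HH and LH, so the spread within a group holds the spread between litters as well as between mice. HH and HL shared 2 mothers by label, as did LH and LL.

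Vitamin D reaches the gut as 25-hydroxyvitamin D and is activated by the 1-alpha-hydroxylase CYP27B1. The active hormone binds the vitamin D receptor, which pairs with a retinoid X receptor at paired copies of a short DNA half-site and raises genes such as Cyp24a1, the hydroxylase that inactivates the hormone, and Trpv6, an epithelial calcium channel. In the colon the receptor is present in epithelial and immune cells, and its ligand is known to restrain cytokines such as TNF-alpha and IL-6. A mother on a poor diet passes little 25-hydroxyvitamin D to the fetus and into milk.

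Values are log2 intensities that the authors had quantile normalized, and a probe counts as detected on an array where its detection score was above 0.99. Probes not detected had a median of 7.09. The mean raw intensity was 326 to 637 on HH and 271 to 578 on LH arrays (494 ± 103 against 390 ± 133, SD, n = 6 each; exact permutation test, two-sided, p = 0.165). The share of probes detected was 29.5% to 37.0% in HH and 23.5% to 34.7% in LH mice (34.2% ± 2.9 against 30.8% ± 4.6, SD, n = 6 each; exact permutation test, p = 0.154). A gene near background can therefore pass a detection limit more often in HH mice. The lowest shares were those of LH 6A (23.5%), LH 13 (27.2%) and HH 10B (29.5%), and HH 10B also had the lowest mean level among HH mice of the immune gene lists described further on. The brightest probe of the goblet cell mucin gene Muc2 lay at 14.95 to 15.26 on all 12 arrays, and dimmer Muc2 probes were detected on 6 and 0. The goblet cell gene Fcgbp was detected on 0 HH and 1 LH array. On at least 6 arrays, 18 of 21 goblet cell markers and 28 of 32 colonocyte markers on the array were detected. The small-intestinal disaccharidase gene Sis, the adipocyte lipid droplet gene Plin1 and the distal homeobox gene Hoxb13 were detected on 0 of the 12. Other genes of those lists were detected on at least 6 arrays, namely 4 of 17 small intestine markers on the array, 5 of 15 adipocyte markers and 7 of 19 posterior Hox and distal colon genes. The mean level of the 5 adipocyte markers was 9.01 to 9.98 in HH and 8.97 to 10.08 in LH mice, and its part in the differences was not tested. The probe for Il10 was detected on 10 of 12 arrays, at 7.54, 7.74 and 7.91 (lowest, median, highest) in HH and 7.15, 7.51 and 7.86 in LH mice, and its place in the disrupted gene is not known.

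No probe passed the test. With limma, 0 of 34417 tested probes (0%) differed between HH and LH at an adjusted p under 0.05, and the smallest adjusted p was 0.952. The filter for testing is looser than the detection limit, so many tested probes lay near background. Before adjustment, 1354 probes (3.93%) had a p under 0.05, of which 720 were higher and 634 lower in HH. That share is below the 0.05 that the threshold itself allows for by chance. The brightest tested probe stood for its gene, and 8997 genes were detected on at least 6 of the 12 arrays. Among these genes 5054 were higher and 3943 lower in HH, with a median difference of 0.02, and 215 higher (2.39%) and 97 lower (1.08%) had an unadjusted p under 0.05. Over the 6263 genes detected on all 12 arrays, a limit added after the data were seen, the counts were 123 and 83. The 95% confidence interval of the difference had a median half-width of 0.245 over the detected genes and 0.478 at the 95th percentile. A difference of the size of 0.25 on the log2 scale was thus at the edge of this interval for a typical gene. The interval is not adjusted for the number of probes, so the adjusted test could miss larger differences. None of the differences given below passed the adjustment, and each adjusted p from limma for HH against LH was between 0.952 and 0.994.

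The 6 HH mice and the 6 LH mice did not overlap for 9 detected genes that were higher in HH (0.1% of the 8997) and 4 that were lower (0.0445%). Over the 6263 genes detected on all 12 arrays the counts were 2 higher and 4 lower. Over all 34417 tested probes they were 37 higher and 44 lower, so the larger number of higher genes depends on the detection limit. Memo1, whose product carries growth factor signals to the cytoskeleton in migrating cells, had the smallest p. It was at 7.84, 8.09 and 8.16 (lowest, median, highest) in HH and at 7.69, 7.77 and 7.83 in LH mice. The nearest pair was HH 10B at 7.84 and LH 15 at 7.83, and the other HH mice were at 8.03 or above. The mean difference was 0.29 (95% CI 0.17 to 0.41; limma, unadjusted p = 0.00015, adjusted p = 0.952).

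Slc20a1, which encodes a sodium-dependent phosphate transporter and belongs to the list of intestinal vitamin D targets, was the second. Its probe was at 7.43, 7.51 and 7.68 in HH and 7.15, 7.25 and 7.36 in LH mice, and it was detected on 6 of 6 HH and 0 of 6 LH arrays. Since no LH array measured it above background, its level in LH is only a bound, and HH was at least 1.06-fold higher by that bound. This bound sets the HH mean against the dimmest detected signal of each LH array, or against the probe's own signal where that was higher. The measured means differed by 0.28 (95% CI 0.17 to 0.40; limma, unadjusted p = 0.00016, adjusted p = 0.952). The 2 other Slc20a1 probes, detected on at most 1 array, differed by 0.05 and -0.02. The promoters of Slc20a1 and of the calcium channel gene Trpv6 are shown because both transporters are on the target list and their probes gave different results. Both sequences are from RefSeq on GRCm38.p6, run 5′ to 3′ on the strand of the gene from 250 bases before to 50 after the start site, and carry the receptor half-site AGGTCA, or its reverse complement, in capitals.
Slc20a1 promoter, chr2:129198523-129198822, plus strand: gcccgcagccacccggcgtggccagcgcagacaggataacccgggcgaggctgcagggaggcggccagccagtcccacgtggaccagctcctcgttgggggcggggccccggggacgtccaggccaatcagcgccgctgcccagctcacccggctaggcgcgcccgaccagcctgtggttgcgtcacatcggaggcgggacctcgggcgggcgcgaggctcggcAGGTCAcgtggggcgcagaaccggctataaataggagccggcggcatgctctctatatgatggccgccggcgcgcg
Trpv6 promoter, chr6:41636356-41636655, minus strand: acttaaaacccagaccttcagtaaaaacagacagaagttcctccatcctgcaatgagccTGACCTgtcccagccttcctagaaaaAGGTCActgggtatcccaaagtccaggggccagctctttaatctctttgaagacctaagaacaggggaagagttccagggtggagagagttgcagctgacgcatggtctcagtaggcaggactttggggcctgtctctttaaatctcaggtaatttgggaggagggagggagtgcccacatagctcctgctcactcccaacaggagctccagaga
Slc20a1 held 1 half-site, at base 225, and Trpv6 held 2, at bases 60 and 86 and on opposite strands. The hexamer AGGTCA was present on either strand in 16.3% of 32851 promoters of the same length, so its presence is a description of these letters and not a site. RefSeq lists a second start for Slc20a1, whose window is not shown. Trpv6 itself was detected on 3 HH and 2 LH arrays, at 7.11, 7.36 and 7.67 in HH and 7.14, 7.26 and 7.81 in LH mice (difference -0.03, 95% CI -0.30 to 0.23).

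The other non-overlapping genes with higher levels in HH were dim, with group means of 7.33 to 7.95. Ddb2, which encodes a DNA damage recognition protein, was at 7.90, 7.94 and 8.01 in HH and 7.61, 7.78 and 7.80 in LH mice, and was detected on all 12 arrays. Its difference was 0.21 (95% CI 0.11 to 0.30; limma, unadjusted p = 0.00042), and 2 of its 3 dimmer probes differed by 0.09 and 0.11 and the third by -0.01. Slit3, a secreted guidance cue of mesenchymal and nerve cells, differed by 0.26, Id4, an inhibitor of helix-loop-helix transcription factors, by 0.26, and Cntn1, a neural adhesion molecule, by 0.24. For these 3 genes the highest LH mouse was at 7.58, 7.56 and 7.62 and the lowest HH mouse at 7.64, 7.60 and 7.67. Each was detected on 6 HH and 4 LH arrays. Gm9958 differed by 0.16. Cdh26 and Zdhhc24, outside the rule for named genes and given here after their values were seen, differed by 0.13 each.

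Of the 4 genes with lower levels in HH and no overlap, Dgkz had the smallest p. It encodes the zeta isoform of diacylglycerol kinase, which removes diacylglycerol and thereby dampens signalling downstream of the T cell receptor. It was at 8.80, 8.89 and 9.08 in HH and 9.15, 9.22 and 9.50 in LH mice, a difference of -0.34 (95% CI -0.48 to -0.19; limma, unadjusted p = 0.00023, adjusted p = 0.952). Its 2 other probes detected on all 12 arrays differed by -0.12 and -0.14, in the same direction and by less. Supt16, a subunit of the histone chaperone FACT, differed by -0.22, and its dimmer probe, detected on 10 arrays, by 0.09. Hyal2, a hyaluronidase at the cell surface, was at 10.50, 10.90 and 11.01 in HH and 11.09, 11.14 and 11.44 in LH mice. HH 10B was the lowest HH mouse for Hyal2 and LH 6A the highest LH mouse, each far from the rest of its group, and the difference was -0.33 (95% CI -0.51 to -0.14). Smco4 differed by -0.26. Arrays scaled to the same median in place of quantile normalization put the median detected gene 0.32 higher in HH, and under that scaling the differences of Dgkz, Supt16 and Hyal2 turned above 0 while each stayed below the shift of all genes. That of Smco4 kept its sign. Relative to the same shift, the higher genes stood closer to the other genes than before: Slc20a1 at 0.05 in place of 0.26, Id4 at 0.05 in place of 0.24, Cntn1 at 0.06 in place of 0.22 and Slit3 at 0.08 in place of 0.24. Gm9958 turned from 0.14 to -0.07, while Memo1 was at 0.22 in place of 0.28 and Ddb2 at 0.10 in place of 0.19.

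**Figure D1:**
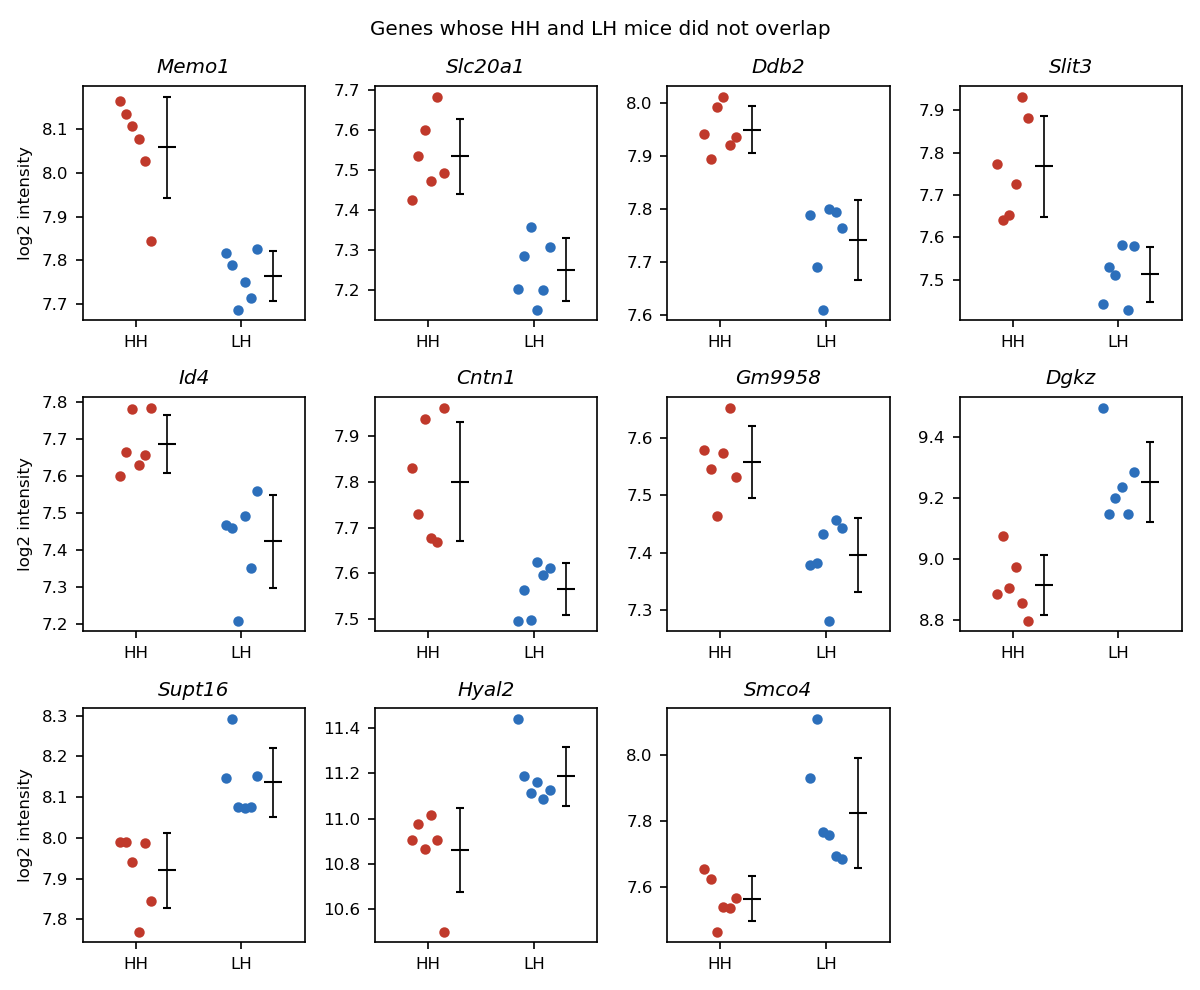
Log2 intensity of the 11 named genes whose HH (red) and LH (blue) mice did not overlap, 1 point for each mouse, with the mean and SD of the 6 mice as a bar. Memo1 HH mice sit at 7.84 to 8.16 above LH mice at 7.69 to 7.83, and Dgkz HH mice at 8.80 to 9.08 below LH mice at 9.15 to 9.50.

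Among the remaining genes with the smallest p, Clk1 had the largest difference. CLK1 is a kinase that phosphorylates splicing factors. Clk1 was at 9.25, 9.85 and 10.06 in HH and 8.93, 9.03 and 9.70 in LH mice, with 5 LH mice between 8.93 and 9.04 and only LH 12B, at 9.70, among the HH mice. The difference was 0.63 (95% CI 0.29 to 0.96; limma, unadjusted p = 0.0014, adjusted p = 0.952), a 1.55-fold higher mean in HH. Luc7l3, another splicing gene, differed by 0.47 with overlapping groups, and its 2 other probes, detected on all 12 arrays, by 0.36 and 0.38 (limma, unadjusted p = 0.022 and 0.016). Antxr1, a collagen-binding receptor of stromal cells, differed by 0.35, Bnip2 by 0.28, Anks6 by 0.22 and 9130020K20Rik by 0.31. Of these, Anks6 turned to -0.04 in place of 0.20 relative to the shift of all detected genes under median scaling. On the lower side were Cluh, which binds mRNAs of mitochondrial proteins, at -0.38, Ehd1, a protein of endocytic recycling, at -0.29, Notch1, a receptor that keeps crypt progenitors from secretory fates, at -0.29, Cnot10 at -0.24 and Pgap6 at -0.21. Notch1 was at 8.38, 8.53 and 8.68 in HH and 8.59, 8.77 and 9.23 in LH mice. The groups overlapped only at LH 15, the lowest LH mouse, which lay below HH 5A.

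Several of the largest differences came from a few mice. Mid1, a ubiquitin ligase of microtubules, had the largest, -0.95 (95% CI -1.81 to -0.08; limma, unadjusted p = 0.034, adjusted p = 0.952). The 6 HH mice lay close together at 7.14 to 7.55. The LH mice were at 9.94 (LH 6A), 9.06 (LH 13), 8.35 (LH 3B) and 7.99 (LH 2), while LH 12B and LH 15 were both at 7.19, near the 7.09 of undetected probes. Hsd3b2, a steroid dehydrogenase gene, differed by -0.75, with LH 6A at 11.87, LH 3B at 11.42 and LH 13 at 10.65 above every HH mouse (9.02 to 10.07). Erich5 differed by -0.65 and Zxda by -0.65, and in both LH 6A was the highest mouse, at 12.46 and 11.10, with LH 13 second. The same 3 LH mice, 6A, 13 and 3B, were thus the highest of the 12 for each of Mid1, Hsd3b2, Erich5 and Zxda. Aqp8, a water channel of surface colonocytes, differed by -0.63 and ranged from 8.96 to 12.01 within HH alone. On the higher side Cyp2c55, a cytochrome of the colon, differed by 0.62 (95% CI -0.17 to 1.41), with HH 10B highest at 10.63. Ang4, an antimicrobial ribonuclease of goblet and Paneth cells, differed by 0.56 through HH 10 (9.80) and HH 10B (9.54), while the other 4 HH mice were at 7.15 to 7.45. Actn1 differed by 0.45. Only 12 of the 8997 detected genes differed by more than 0.5 in either direction.

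**Figure D2:**
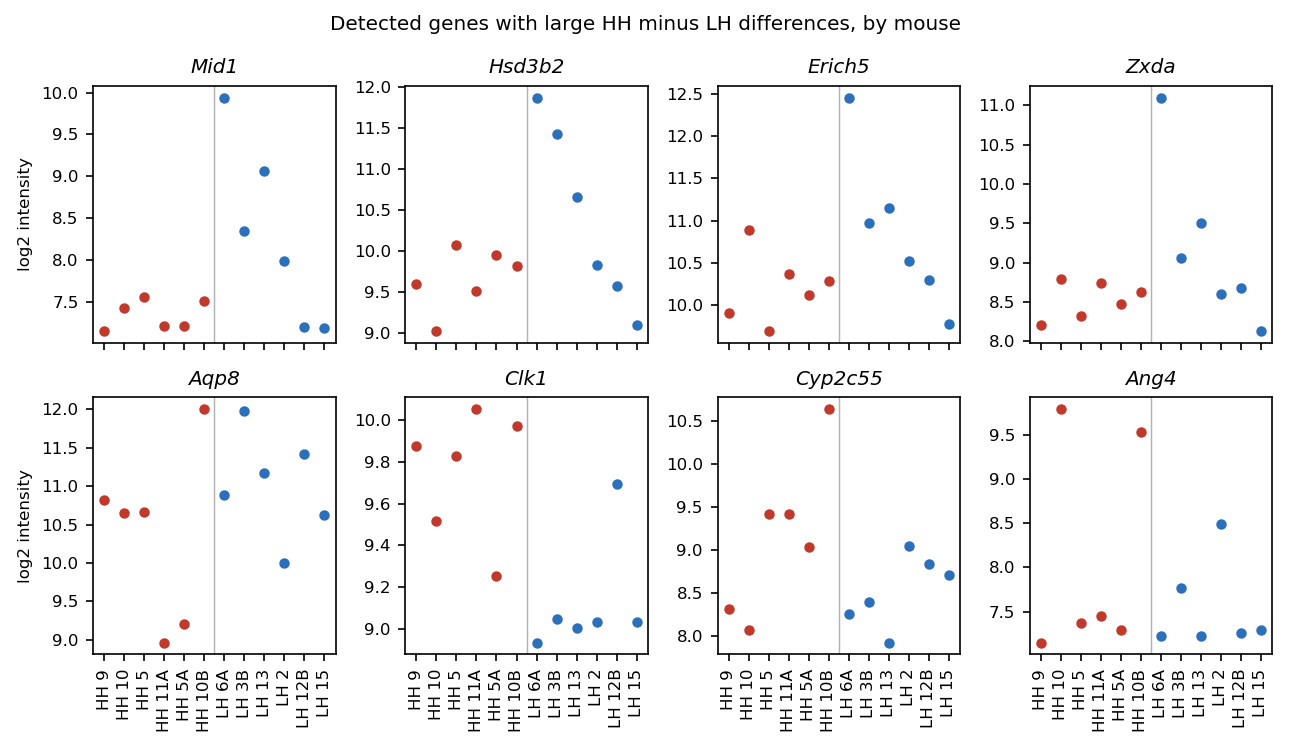
Log2 intensity of 8 detected genes with large HH minus LH differences, 1 point for each of the 12 mice (HH red, LH blue). LH 6A, LH 3B and LH 13 are the highest mice for Mid1, Hsd3b2, Erich5 and Zxda, HH 10 and HH 10B for Ang4, and 5 of 6 LH mice lie at 8.93 to 9.04 for Clk1.

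Genes of the extracellular matrix and of fibroblasts stood higher in HH mice. Of 28 detected members of this list 24 were higher and 4 lower in HH, with a median difference of 0.18, beside 56.2% higher and a median of 0.02 over all detected genes. The unadjusted p was under 0.05 for 6 members, all higher in HH, where 2.39% of all detected genes were called in that direction, and 0 passed the adjustment. The list was written with earlier results of these data known, and its genes vary together, so these counts describe the list. In RNA from whole tissue, fewer cells of a type and less RNA for each cell cannot be told apart.

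The 6 members are matrix proteins and their modifiers. Mmp2, a gelatinase, was at 9.63, 9.93 and 10.00 in HH and 9.43, 9.61 and 9.82 in LH mice, and HH 10 was the only HH mouse below 9.88. The difference was 0.29 (95% CI 0.11 to 0.46; limma, unadjusted p = 0.0037, adjusted p = 0.952). Lum, which encodes the collagen-binding proteoglycan lumican, was at 8.47, 8.54 and 9.20 in HH and 8.15, 8.19 and 8.72 in LH mice. The difference was 0.38, and a second Lum probe, detected on all 12 arrays, gave 0.38 as well (limma, unadjusted p = 0.00041). Timp3, an inhibitor of metalloproteinases bound to the matrix, differed by 0.36, and LH 15 was the highest mouse of all 12 at 9.76. Col5a1, a fibrillar collagen chain, differed by 0.26, Dcn, the proteoglycan decorin, by 0.25 and Sparc, a collagen-binding glycoprotein, by 0.20. A second bright probe of Dcn differed by 0.43 (limma, unadjusted p = 0.005) and one of Sparc by 0.15. Mmp2, Col5a1, Dcn and Sparc are named after their values were seen. Col3a1 and Col4a2, chains of interstitial and basement membrane collagen, differed by 0.33 and 0.30, with intervals that include 0.

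The mean level of the 28 genes was 9.03, 9.12 and 9.26 in HH and 8.88, 8.93 and 9.12 in LH mice. HH 10B was the highest HH mouse and LH 15 the highest LH mouse, and LH 15 lay above 3 HH mice. Without HH 10B the median difference was 0.11 with 24 of 28 genes higher, and without LH 6A it was 0.16 with 23 higher. Without HH 10B, LH 6A and LH 13, the arrays with the fewest detected probes, 23 of 28 genes were still higher but the median was 0.07 and 3 had an unadjusted p under 0.05. With the share of detected probes as a covariate the median was 0.15. In mice fed low after weaning, the same maternal contrast (HL minus LL) had a median of 0.07 with 21 of the 28 genes higher, where all detected genes had a median of -0.0047. HL shared 2 mothers with HH, and LL shared 2 with LH, so these contrasts do not come from independent litters.

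**Figure D3:**
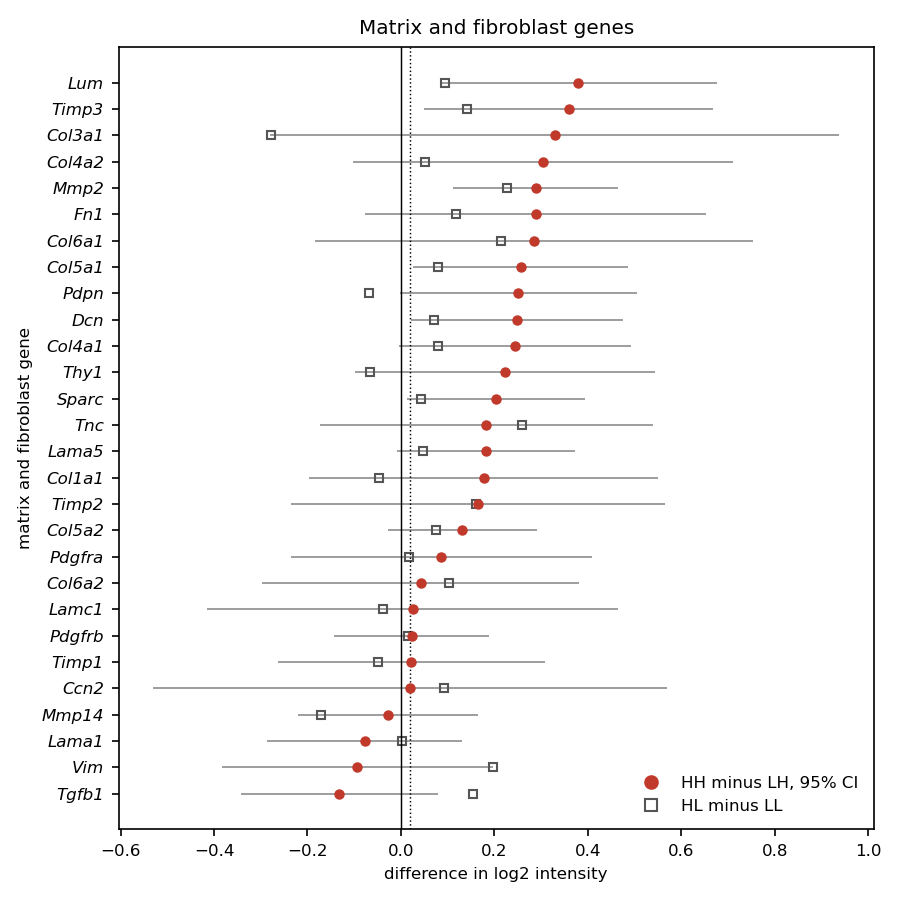
HH minus LH difference in log2 intensity with its 95% confidence interval (red points) for the 28 detected matrix and fibroblast genes, and the HL minus LL difference of the same genes (open squares). The solid line marks 0 and the dotted line the median of all detected genes, 0.02; 24 red points lie above 0, from 0.38 for Lum downwards.

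Other cell types of the gut wall showed a similar direction with weaker counts. Of 16 detected smooth muscle markers 14 were higher in HH, with a median difference of 0.17, and 0 had an unadjusted p under 0.05. Des, the intermediate filament of muscle cells, differed by 0.40 (95% CI -0.03 to 0.82), Acta2, smooth muscle actin, by 0.28 and Actg2, the enteric smooth muscle actin, by 0.20. The 3 other Acta2 probes detected on all 12 arrays differed by 0.03, 0.33 and 0.34. Flna, an actin cross-linker, differed by 0.29. Myh11, the smooth muscle myosin, was at 11.49 in HH 10B and at 9.92 to 10.23 in the other HH mice. Without HH 10B the median was 0.06 with 12 of 16 genes higher, and without HH 10B, LH 6A and LH 13 it was -0.01 with 7 of 16 higher. The smooth muscle counts therefore rested on those arrays. Of 7 detected markers of enteric neurons and glia 6 were higher, led by Vip, a neuropeptide of secretomotor neurons, at 8.86, 9.19 and 10.03 in HH and 8.20, 8.79 and 9.40 in LH mice (difference 0.44, 95% CI -0.02 to 0.90). The median of this list was 0.11, and 0.07 without LH 13. The neuropeptide gene Gal differed by 0.22 and the synaptic vesicle gene Syt1 by 0.19. Relative to the shift of all detected genes under median scaling, Syt1 was at -0.11 in place of 0.17, and Gal at 0.24 in place of 0.20. Of 11 detected endothelial markers 8 were higher, with a median of 0.04 (0.08 without LH 6A, 0.02 without LH 3B). Lyve1, a hyaluronan receptor of lymphatic endothelium, was at 7.97, 8.16 and 8.31 in HH and 7.60, 7.96 and 8.11 in LH mice (difference 0.26; limma, unadjusted p = 0.013, adjusted p = 0.952), and Esam, an endothelial adhesion molecule, differed by 0.32 with an interval of -0.18 to 0.82.

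The genes through which vitamin D acts gave small differences. Vdr, the receptor, was bright, at 10.36, 10.81 and 11.11 in HH and 9.80, 10.81 and 11.13 in LH mice. The medians were the same, and the mean difference of 0.11 (95% CI -0.31 to 0.53; exact permutation test, two-sided, p = 0.677, n = 6 each) became -0.07 without LH 6A, the lowest mouse. The 2 other Vdr probes differed by 0.08 and -0.04. Rxrb, which encodes a partner of the receptor, was at 8.97, 9.08 and 9.44 in HH and 9.18, 9.32 and 9.95 in LH mice, a difference of -0.27 (95% CI -0.56 to 0.01). It turned to 0.16 under median scaling, below the shift of 0.32 of all detected genes, and a dimmer Rxrb probe detected on 11 arrays differed by 0.02. Cyp27a1, a 25-hydroxylase, differed by 0.19, and its 2 dimmer probes by 0.22 (limma, unadjusted p = 0.0013, adjusted p = 0.952) and 0.09. Dhcr7, which draws 7-dehydrocholesterol away from vitamin D synthesis, differed by -0.27, and Pdia3, a chaperone that can bind the hormone, by 0.33. Of the 6 detected genes of this list 4 were higher in HH and 2 lower, with a median of 0.13 that was 0.0097 without LH 6A.

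Cyp24a1 and Cyp27b1 were detected on 0 of 12 arrays and did not pass the filter, and S100g, the calbindin of intestinal calcium transport, was also detected on 0. Among 18 detected vitamin D target genes of the intestine, 12 stood higher and 6 lower in HH, with a median of 0.04, and Slc20a1 alone had an unadjusted p under 0.05. The list had no direction without LH 13 (9 higher, 9 lower, median 0.00060), and its median was 0.0069 without HH 5A. Slc8a1, a sodium-calcium exchanger, was at 8.53, 8.92 and 9.10 in HH and 8.46, 8.66 and 9.02 in LH mice (difference 0.19), and its probe detected on 8 arrays differed by 0.25 (limma, unadjusted p = 0.0078). The cytochrome gene Cyp3a13 differed by 0.20 and the pore-forming claudin gene Cldn2 by 0.17, with 0.03 for its other probe. Of 10 detected calcium and phosphate transport genes 7 were higher, with a median of 0.09 that was 0.017 without HH 10B, 0.037 without LH 6A and 0.0079 with 5 of 10 higher without HH 10B, LH 6A and LH 13.

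Inflammatory lists gave no common direction. The medians of the colitis, macrophage and neutrophil, and interferon-gamma and MHC class II lists each changed sign when a certain single mouse was left out. Of 28 detected targets of TNF-alpha and NF-kappaB 7 were higher and 21 lower in HH, with a median of -0.09, and of 37 detected markers of colitis 12 were higher and 25 lower, with a median of -0.06. HH 10B had the lowest mean level of both lists. Without it, 13 of the 28 targets were higher with a median of -0.05, and 26 of the 37 colitis markers were higher with a median of 0.10. The direction of the colitis list therefore turned on HH 10B. The macrophage and neutrophil list kept a positive median and went from 10 of 19 genes higher with all mice to 18 of 19 without HH 10B (median 0.02 and 0.16), and the list of interferon-gamma and MHC class II genes from 18 of 31 to 25 of 31 (median 0.03 and 0.13). These 2 medians lay close to 0 with all mice and turned below it without certain others, such as HH 5 (-0.05 and -0.01). HH 10B was also the highest HH mouse for the means of colonocyte (11.56) and smooth muscle markers (10.72), so its levels were not apart in immune genes alone.

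Tnf was at 7.14, 8.13 and 8.23 in HH and 7.94, 8.21 and 8.73 in LH mice. The 7.14 was HH 10B, and the other 5 HH mice were at 8.00 or above. The difference was -0.35 (exact permutation test, two-sided, p = 0.143, n = 6 each), -0.18 without HH 10B and -0.42 without LH 2 (p = 0.041 by the same test). A dimmer Tnf probe differed by -0.36 (limma, unadjusted p = 0.032, adjusted p = 0.952). Among the targets, Ier3, an early response gene, differed by -0.44, Cxcl1, a neutrophil chemokine, by -0.42 and Bcl3, a nuclear partner of NF-kappaB, by -0.36. LH 6A was the highest mouse for Ier3 at 10.25 and for Cxcl1 at 10.60. Each of Ier3, Cxcl1 and Bcl3 turned to between 0.01 and 0.03 under median scaling, below the shift of all genes. Il6 was detected on 0 HH and 1 LH array, and differed by -0.13 (exact permutation test, p = 0.167, n = 6 each). Il17a was detected on 1 array of each group and differed by 0.06 (exact permutation test, p = 0.506, n = 6 each). Il1a, detected on 4 HH and 3 LH arrays, differed by 0.05 (exact permutation test, p = 0.779, n = 6 each). For Il6 and Il17a these values compare signal at background, and a difference in their mRNA was not detectable with these probes. Il1b was at 7.59 in HH 10B and at 9.11 to 10.64 in the other HH mice, against 9.06 to 9.94 in LH mice (difference -0.22). Lcn2, a siderophore-binding protein of inflamed epithelium, was at 8.21 in HH 10B and 9.62 to 10.14 in the other HH mice, and differed by -0.24. Duox2, an epithelial oxidase, differed by -0.33 (95% CI -0.90 to 0.24), with LH 3B highest at 9.88. Differences of Ifng, S100a8, Tnfsf11 (RANKL) and Tnfrsf11b (osteoprotegerin, its decoy receptor) were -0.05, -0.06, -0.08 and 0.11.

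Interferon genes split evenly. Of 20 detected type I interferon genes 10 were higher and 10 lower, with a median of 0.01 that was 0.08 without HH 10B and -0.04 without LH 6A. Oas2, an antiviral oligoadenylate synthetase, was at 7.47, 7.56 and 7.74 in HH and 7.05, 7.38 and 7.54 in LH mice, detected on 6 HH and 3 LH arrays (difference 0.24; limma, unadjusted p = 0.019, adjusted p = 0.952). The difference was 0.25 between HL and LL mice, some of which shared mothers with HH and LH mice. The limma test of the difference between the 2 contrasts gave an unadjusted p of 0.969. Relative to the shift of all detected genes, the HH minus LH difference of Oas2 was -0.05 under median scaling in place of 0.22. Oasl2 differed by 0.39 (95% CI -0.00 to 0.79) and its dimmer probe by -0.09. Among leukocyte genes, Ccr7, a homing receptor of T cells and dendritic cells, was lower in HH by 0.16 (limma, unadjusted p = 0.025), and Mrc1, a scavenger receptor of resident macrophages, differed by 0.30. Their lists lay near 0. Of 17 detected T cell and NK cell markers 7 were higher and 10 lower in HH, with a median of -0.02. Mrc1 had the largest difference of the macrophage and neutrophil list, whose median was 0.02.

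**Figure D4:**
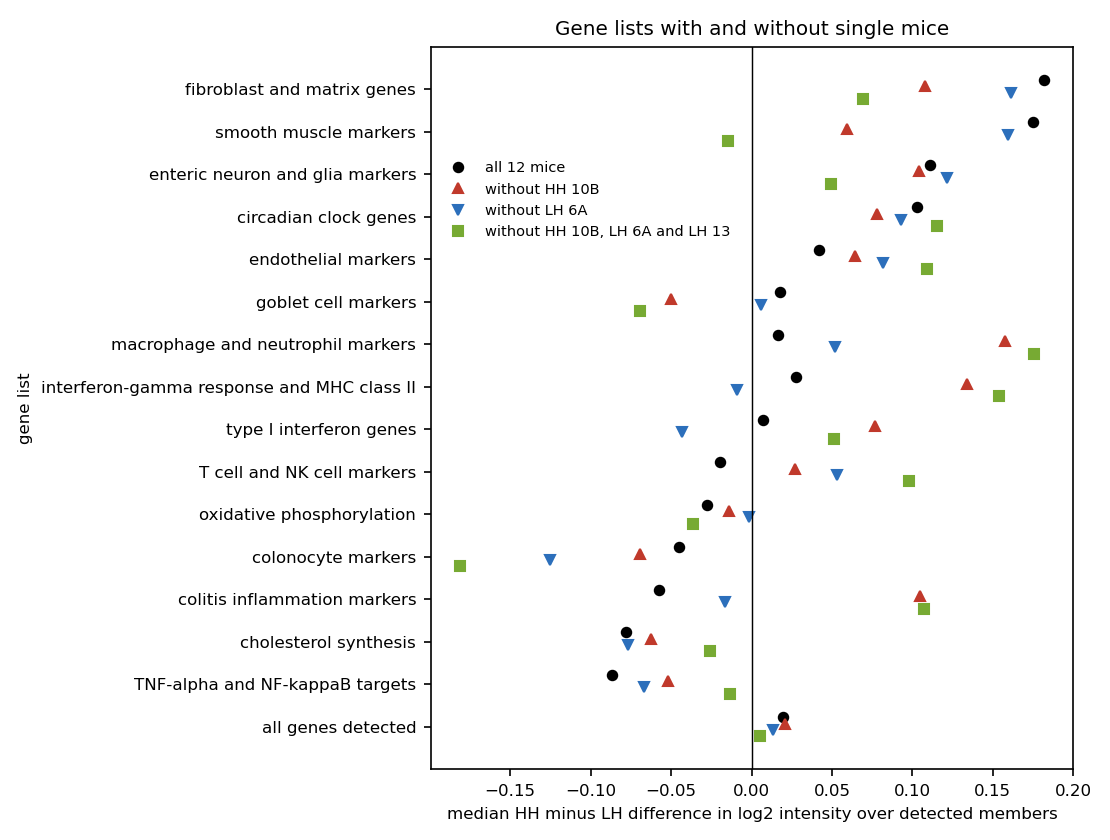
Median HH minus LH difference in log2 intensity over the detected members of 15 gene lists and over all detected genes, with all 12 mice (black), without HH 10B (red), without LH 6A (blue) and without HH 10B, LH 6A and LH 13 (green). The matrix list stays above 0 in all 4 settings, the colitis list moves from -0.06 to 0.10 without HH 10B, and smooth muscle moves from 0.17 to -0.01 without the 3 arrays.

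Epithelial genes differed little as a group. Of 28 detected colonocyte markers 11 were higher and 17 lower in HH, with a median of -0.05, and this direction rested on single mice. The median was 0.06 with 16 of 28 higher without LH 3B, between 0.0057 and 0.0097 with 14 of 28 higher without HH 10, HH 11A or LH 12B, and -0.18 with 25 lower without HH 10B, LH 6A and LH 13. HH 10B had the highest mean level of this list in HH, and LH 6A the lowest in LH. Slc4a4, a bicarbonate cotransporter, was at 8.21, 8.42 and 9.11 in HH and 8.50, 8.90 and 9.22 in LH mice (difference -0.36; limma, unadjusted p = 0.035, adjusted p = 0.952). Without HH 10B, at 9.11, the other HH mice were at or below 8.67, under all LH mice but LH 15. Car4, a membrane carbonic anhydrase, ranged from 10.72 to 13.32 in HH and differed by -0.27. Of 18 goblet cell genes 11 were higher, and 7 without HH 10B. Muc1, a transmembrane mucin, was at 8.31, 8.81 and 9.20 in HH and 8.70, 9.20 and 9.72 in LH mice, a difference of -0.43 (95% CI -0.81 to -0.05; limma, unadjusted p = 0.029, adjusted p = 0.952). Its 3 other probes differed by -0.40, -0.31 and -0.16. The transmembrane mucin gene Muc4 differed by -0.31, and Muc2, the secreted gel mucin, by 0.05 (95% CI -0.07 to 0.17). Among hormone genes of enteroendocrine cells, Sst, somatostatin, differed by 0.36 (limma, unadjusted p = 0.034) and Pyy, peptide YY, by -0.39 (95% CI -0.95 to 0.16).

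Of 18 detected genes of cholesterol synthesis 4 were higher and 14 lower in HH, with a median of -0.08 that was -0.13 without HH 10 and -0.05 without LH 3B. Srebf2, the transcription factor that drives the pathway, differed by -0.20. The HL minus LL median of this list was -0.15, with 3 of 18 genes higher. Of 32 detected genes of oxidative phosphorylation and its regulators 12 were higher, with a median of -0.03, and 17 without LH 3B, with a median of 0.01. Tfam, which packages mitochondrial DNA, differed by 0.24 (limma, unadjusted p = 0.044), and its other probe by 0.19. Of 10 clock genes 8 were higher, with a median of 0.10 that was 0.05 without HH 5. Dbp, a clock output gene, was at 9.91 in HH 10 and 10.15 in HH 5 and at 7.95 to 8.08 in the other 4 HH mice. Of 15 detected epigenetic writers and imprinted genes 7 were higher. Impact, an imprinted gene, was at 8.66, 8.96 and 9.12 in HH and 8.22, 8.72 and 8.88 in LH mice (difference 0.32; limma, unadjusted p = 0.016, adjusted p = 0.952).

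Whether the maternal diet acted differently in pups fed high and pups fed low was tested as the difference between HH minus LH and HL minus LL. With limma 0 of 37654 probes (0%) passed at an adjusted p under 0.05, the smallest adjusted p was 0.9999, and 1107 probes (2.94%) had an unadjusted p under 0.05. This fit has no term for the mother, although 2 mothers had pups in both HH and HL and 2 in both LH and LL. The genes without overlap between HH and LH did not show the same gap in pups fed low. The HL minus LL difference was -0.03 for Memo1, 0.08 for Slc20a1, -0.04 for Ddb2, -0.05 for Slit3, -0.11 for Id4 and -0.11 for Cntn1, and it was -0.00 for Dgkz, 0.08 for Supt16 and -0.05 for Hyal2. The test of the difference gave unadjusted p-values of 0.039 for Memo1, 0.155 for Slc20a1, 0.013 for Ddb2, 0.013 for Id4 and 0.111 for Dgkz (limma, adjusted p = 0.9999 for each). Those genes were chosen for a large HH minus LH difference, so a smaller value in another set of mice is no independent sign that the contrasts differ. HH minus LH is also part of the tested difference, so that choice tends to lower these unadjusted p-values. For Mmp2 the HL minus LL difference was 0.23, and the unadjusted p for the difference between contrasts was 0.814.

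**Figure D5:**
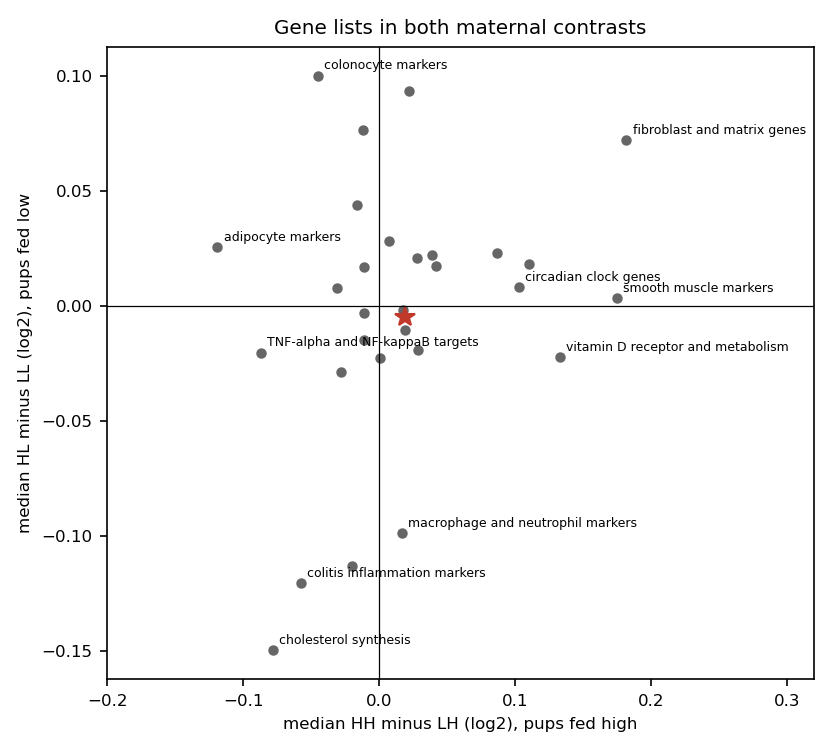
Median difference over detected members of the gene lists with at least 5 such members, HH minus LH on the x axis and HL minus LL on the y axis, with all detected genes as a red star. The matrix list lies at 0.18 and 0.07, smooth muscle at 0.17 and 0.0035, cholesterol synthesis at -0.08 and -0.15, and colitis markers at -0.06 and -0.12.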

How the data were processed

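Total RNA of the proximal colon was hybridized to Illumina MouseWG-6 arrays. The deposited files hold the raw intensity of each of 45281 probes, a detection score given as a fraction from 0 to 1, and quantile normalized log2 values, which the authors made in Genespring. The raw intensities, log2 transformed and quantile normalized here, differed from these by at most 0.000415. Probes above the 20th percentile of their array in at least 80% of the HH or of the LH arrays were tested with limma (version 3.58.1 in R 4.3.3) and Benjamini-Hochberg adjustment. The interaction was fitted over all 24 arrays with 1 mean for each group. Exactly 1 gene symbol was available for 34885 probes, several for 18 and none for 10378, through the platform annotation updated by gene identifier to RefSeq. Of 796 genes in the lists, 741 were matched. Named genes were, among those detected on at least 6 of 12 arrays, the 12 with the smallest p and the 5 with the largest difference in each direction, up to 4 from each list by size of difference, and a fixed set of vitamin D and cytokine genes, of which a part is printed. The members and lists were chosen with earlier results of these data known. The alternatives were neqc, median scaling, other filters, all 24 arrays, the methods' t-test, a trended robust spread, the share of detected probes as covariate, array weights and leaving out mice. The script for the test was run on simulated data with known differences. The number of arrays limits the precision. Separate mice were used for each array, so p-values measure the spread between mice. A replicate number was given in accession order and names a mouse only.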

Additional observations from a re-analysis of the deposited data

Results flagged for a closer look

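In 26 of 258 groups of 6 mice examined, the highest or lowest mouse lay apart from the other 5 by more than Dixon's critical share of the group's range. The groups were those of named genes, mean levels of gene lists, mean raw intensity and the share of detected probes. Chance flags about 1 in 20 groups, and genes of a list vary together. HH 10B was that mouse 12 times, LH 6A 5 times, HH 10 and HH 5A 2 times each, and HH 5, HH 11A, LH 12B, LH 13 and LH 3B once each.

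HH 10B was low for Hyal2 (10.50), Tnf (7.14) and Lcn2 (8.21) and high for Sparc (10.80), Myh11 (11.49) and Dhcr7 (9.06). Its mean level was low for the colitis markers (8.78), macrophage and neutrophil markers (9.11), the IL-6 family and STAT3 feedback (9.45), the interferon-gamma and MHC class II list (10.26) and type I interferon genes (8.52), and high for colonocyte markers (11.56). The other 5 HH mice lay at 9.59 to 9.94 for the colitis markers and at 10.83 to 11.10 for colonocyte markers. This mouse also had the third lowest share of detected probes of the 12, and the part of that share in its levels was not tested.

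LH 6A was high for Hyal2 (11.44), Pgap6 (8.83), Cyp24a1 (7.49, not detected) and the mean of T cell and NK cell markers (8.72), and low for the mean of the vitamin D receptor and metabolism list (9.37). It had the lowest share of detected probes of the 12.

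Single values apart from their group were those of HH 10 for Mmp2 (9.63) and Cyp3a13 (10.07), HH 5A for Adipoq (9.34) and the mean of the adipocyte markers (9.98), HH 11A for the mean of posterior Hox and distal colon genes (8.33), HH 5 for the mean of clock genes (8.93), LH 12B for Clk1 (9.70), LH 3B for Supt16 (8.29) and LH 13 for Mrc1 (7.32).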

How the results depend on the processing

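No probe passed an adjusted p under 0.05 in limma under any alternative run, for HH against LH or for the interaction, and the smallest adjusted p of a named gene was 0.22. The 1354 probes with an unadjusted p under 0.05 became 2320 (1693 higher) under median scaling and 397 (260 higher, 137 lower) with the filter on detected probes, which tests fewer probes. Leaving out 1 mouse gave 982 (without HH 11A) to 2121 (without HH 10) such probes, with 554 to 1138 higher and 428 to 983 lower, and 1083 higher without LH 12B. For detected genes the 215 higher became 123 on genes detected on all 12 arrays. The interaction count stayed between 953 and 1223 without 1 mouse. Of 1997 values of 91 named genes, 1944 kept direction and side of the threshold and 53 reversed, in 24 genes. Under median scaling, which moved the median of all detected genes to 0.32, these turned: Dgkz (0.087), Supt16 (0.025), Cnot10 (0.035), Hyal2 (0.15), Pgap6 (0.15), Notch1 (0.10), Rxrb (0.16), Dhcr7 (0.050), Trpv6 (0.056), Cxcl1 (0.031), Ier3 (0.018), Bcl3 (0.0063), Il1b (0.26), Ifng (0.11), Tnfsf11 (0.057), Lcn2 (0.24), S100a8 (0.33), Car4 (0.20), Pyy (0.074) and Srebf2 (0.14). Relative to that shift, 16 of 169 detected named genes changed sign. Without HH 10B, LH 6A and LH 13, a setting chosen after seeing the data, these turned: Myh11 (-0.045), Vdr (-0.13), Trpv6 (0.079), Il1b (0.23), Ifng (0.051), Tnfsf11 (0.029), Lcn2 (0.049) and S100a8 (0.45). With array weights, these turned: Trpv6 (0.016), Il1b (0.10), Ifng (0.019), Tnfsf11 (0.029) and S100a8 (0.16). With the share of detected probes as a covariate, these turned: Vdr (-0.17), Trpv6 (0.0083), Il1a (-0.019) and S100a8 (0.087). The cause was not tested. Leaving out 1 mouse gave -0.066 to 0.20 for Vdr, -0.42 to -0.18 for Tnf (exact permutation p = 0.041 without LH 2) and -0.076 to 0.12 for Il1a. The other genes that turned without 1 mouse ranged from -0.10 to 0.055 for Trpv6, -0.068 to 0.0063 for S100g, -0.49 to 0.12 for Il1b, -0.082 to 0.020 for Ifng, -0.14 to 0.021 for Tnfsf11, -0.36 to 0.029 for Lcn2 and -0.20 to 0.18 for S100a8. No paired analysis was possible because HH and LH mice shared 0 mothers and replicate numbers follow accession order. The BeadChip block was not run because the headers name no BeadChip. Genes near background, such as Slc20a1, are limited by signal over background.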

Other observations

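Among probes with no gene symbol, ILMN_1239596 stood at 9.96 in HH and 8.75 in LH mice (difference 1.21; limma, unadjusted p = 0.00051, adjusted p = 0.952) and ILMN_1224026 at 9.28 and 8.27 (difference 1.01, unadjusted p = 0.0032). Both exceed every difference among the named detected genes and were picked after their values were seen.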
